A study of Mus musculus with 32 samples.

Results

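Tumor cells sampled at week 4 of tumor development were compared with tumor cells sampled at week 2, gene by gene. The members are the 4 week 4 libraries and the 3 week 2 libraries of the tumor time course, 7 of the 32 libraries in the series, taken by the week in their column names. The labels describe all 7 as breast cancer cells, give MMTV-PyMT as the cell line and tumor as the tissue, and name no treatment, strain, age or sex, so the weeks differ by the sampling time alone as far as the labels go. In the mouse model of that name, the mouse mammary tumor virus promoter drives the polyomavirus middle T antigen, an oncoprotein, mainly in mammary epithelium. The study compared early, middle and late tumors, and its title names Mogat1. How tumor cells were separated from the other cells of a tumor, whether animals were pooled and whether replicates came from separate animals is not given in the sources used here, so part of the spread behind the p-values may be technical. RNA extracted with TRIZOL was made into stranded mRNA libraries, and the values are in TPM, a unit that adjusts reads for the length of a gene and the size of its library. A log2 fold change here is the mean log2(TPM + 1) of week 4 minus that of week 2, so a positive value means more at week 4, and changes of genes with few TPM are understated.

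Middle T sits at the inner face of the membrane, where it recruits Src family kinases, the SHC adaptor and phosphoinositide 3-kinase, and so sends signals much like those of an activated receptor tyrosine kinase. Mammary tumor epithelium is held together by tight junctions, adherens junctions and desmosomes, under transcription factors of the grainyhead, AP-2, ETS and GATA families. Part of that programme is lost in epithelial cells that take on mesenchymal traits under SNAI, ZEB and related factors. The p53 protein, a sensor of DNA damage and oncogene stress, switches on arrest and death genes such as Cdkn1a, together with its own inhibitor Mdm2.

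Of 14770 genes tested with limma, 6843 passed an adjusted p of 0.05 (46.3% of the tested genes). At week 4, 4318 of them were higher (29.2%) and 2525 were lower (17.1%). These 3 shares are the background against which every list of genes is read. Among the genes past the threshold, 2260 moved at least 2-fold (15.3%), 1210 of them higher (8.19%) and 1050 lower (7.11%) at week 4. Large changes were mostly falls: 116 genes rose and 294 fell at least 4-fold, and 0 rose but 21 fell at least 16-fold. The libraries of the 2 weeks did not overlap for 6644 genes (45.0%). Most genes named below were picked for large changes, so a lack of overlap describes their values and says nothing about their lists. For 2813 genes the 95% interval of the log2 fold change lay within 0.5 of 0. The median over all tested genes was 0.11 and was -0.02 after median-of-ratios rescaling, which called 3471 genes higher and 3482 lower. The excess of rises over falls is therefore relative to that shift.

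Correlations of log2(TPM + 1) over the tested genes ran from 0.976 to 0.985 within week 4, from 0.947 to 0.974 within week 2 and from 0.888 to 0.931 between the weeks. Read depth is not given in the deposited table, and 13636 to 13837 genes reached 1 TPM in a week 4 library against 13836 to 14184 in a week 2 library. Mitochondrially encoded genes held 9.81% to 16.1% of TPM at week 4, highest in replicate 3, and 6.37% to 12.7% at week 2, lowest in replicate 1. The week 2 libraries stood apart from each other in transcript length. Genes with transcripts of 4000 bases or more held 7.98% to 8.71% of TPM at week 4, against 8.17% in week 2 replicate 1 but 5.66% and 5.36% in week 2 replicates 2 and 3. With that, the median log2 fold change was -0.01 for genes with transcripts under 1000 bases and 0.32 for genes with transcripts of 6000 bases or more. Without week 2 replicates 2 and 3, which leaves replicate 1 as the only week 2 library, these medians were 0.02 and 0.05. Counts and adjusted p from that fit rest on this 1 library and are descriptions only. Replicate 1 also differed in other ways, such as a B cell marker sum of 376 TPM, against 66.5 and 48.7 TPM in replicates 2 and 3. Counts of several lists and values of a few genes are therefore also given without these libraries or with the length trend taken out of every library (transcript length centring). Most single genes have no such fold change beside them, among them Lrp5, Plxnb2, Cad, Ptk7 and Notch1, which were highest in replicate 1 at week 2. Plxnb2 had 140.7, 57.3 and 54.8 TPM in week 2 replicates 1, 2 and 3, and Cad 37.3, 12.1 and 11.1 TPM. Their fold changes thus lean on replicates 2 and 3. The part of transcript length in the results was not tested further.

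**Figure D1:**
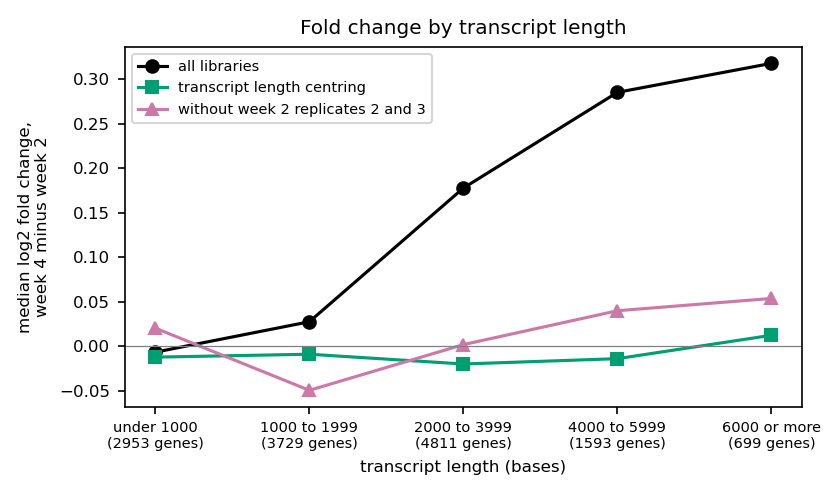
Median log2 fold change, week 4 minus week 2, of tested genes in 5 bins of transcript length (bases), from all libraries, after transcript length centring and without week 2 replicates 2 and 3. With all libraries the median runs from -0.01 in the shortest bin to 0.32 in the longest, and the other 2 lines stay between -0.05 and 0.05.

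The label of breast cancer cells was checked against epithelial markers. Of 14 tested markers of mammary tumor epithelium, 11 rose and 1 fell, and their summed level was 2480.2 to 2926 TPM at week 4 and 1294 to 1756 TPM at week 2. Epcam, an adhesion protein of epithelial cells, had 561, 513, 475 and 567 TPM at week 4, against 283, 249 and 384 TPM at week 2 (log2 fold change 0.81, SE 0.15, adjusted p = 0.00136). The 2 weeks did not overlap. Krt19, a keratin of simple epithelia, was the marker that fell (2.02, 6.29, 4.06 and 4.27 TPM at week 4, against 26.6, 37.5 and 17.3 TPM at week 2). The summed epithelial markers were thus well above 0 in all 7 libraries and higher at week 4, while Krt19 was as low as 2.02 TPM. In week 2 replicates 1 to 3, fibroblast markers summed to 8682, 8847 and 3481 TPM, above the epithelial 1364, 1294 and 1756 TPM. At week 4, fibroblast markers summed to more than the epithelial markers in every library but replicate 1. How much of the RNA came from tumor cells was not tested.

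Several lists of markers of other cells moved with the week. B cell markers fell in 10 of 12 and rose in 0, with a sum of 10.9 to 18.9 TPM at week 4 and 48.7 to 376 TPM at week 2. T cell markers fell in 12 of 14 and rose in 0, with a sum of 90.8 to 125 TPM at week 4 and 147 to 397 TPM at week 2, and with array weights, which give discordant libraries less weight, 5 fell. The estimate of these weights did not fully converge, so every value with array weights is approximate. Endothelial markers fell in 12 of 17 and rose in 1 (sum 106 to 128 TPM at week 4 and 222 to 383 TPM at week 2, 7 falls with array weights), and mast cell markers fell in 7 of 9 and rose in 1 (sum 96.2 to 122 TPM at week 4 and 254 to 518 TPM at week 2). The mast cell sum was mostly Kit at week 4 (90.2 of 98.5 TPM in replicate 1). At week 2 it was mostly Il1rl1 (427 of 513 TPM in replicate 1), so it is not a level of mast cells. Fibroblast markers fell in 2 of 12 (16.7%) and macrophage and monocyte markers in 3 of 17 (17.6%), shares near the 17.1% of all tested genes. Rises were rarer than the 29.2% of all tested genes: 0 fibroblast markers and 1 macrophage and monocyte marker (5.88%) rose. The median log2 fold change was -0.11 for fibroblast markers and -0.84 for macrophage and monocyte markers. Over the alternatives these medians ran from -0.43 to 0.17 and from -2.03 to -0.48. Fibroblast sums overlapped, with 2396 to 7610.1 TPM at week 4 and 3481 to 8847 TPM at week 2. Macrophage and monocyte sums overlapped too, with 580.2 to 1770.2 TPM at week 4 and 825 to 3112 TPM at week 2. The count of macrophage falls was 0 without week 4 replicate 3, week 4 replicate 4 or week 2 replicate 1, 1 without week 2 replicate 3 and 6 without week 2 replicate 2.

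Week 2 replicate 1 held most of the lymphocyte signal: its B cell sum was 376 TPM, against 66.5 and 48.7 TPM in week 2 replicates 2 and 3. Without it, 8 B cell, 11 T cell and 11 endothelial markers fell. Of the remaining marker lists, NK cell genes fell in 3 of 7 (42.9%) and dendritic cell genes in 3 of 8 (37.5%), against 17.1% of all tested genes. Basal and myoepithelial genes rose in 2 of 7 and fell in 2, and pericyte and smooth muscle genes rose in 3 of 10 (5 without week 4 replicate 1 and 1 without week 2 replicate 2). Neutrophil genes rose in 3 of 5, namely S100a8, S100a9 and Camp, while Ly6g was listed at 0 in all 7 libraries. Adipocyte, Schwann cell and skeletal muscle genes fell in 1 of 3, 2 of 6 and 0 of 5, with 1 skeletal muscle rise, and the single tested erythroid gene rose. The Schwann cell falls numbered 0 with array weights or without week 2 replicate 2, and 1 in a fit of the 7 libraries alone, without week 2 replicate 1 or without week 4 replicate 1, 2 or 3. In bulk RNA, fewer cells of a type and less RNA per cell cannot be told apart, and the part of other cells in the results was not tested.

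**Figure D2:**
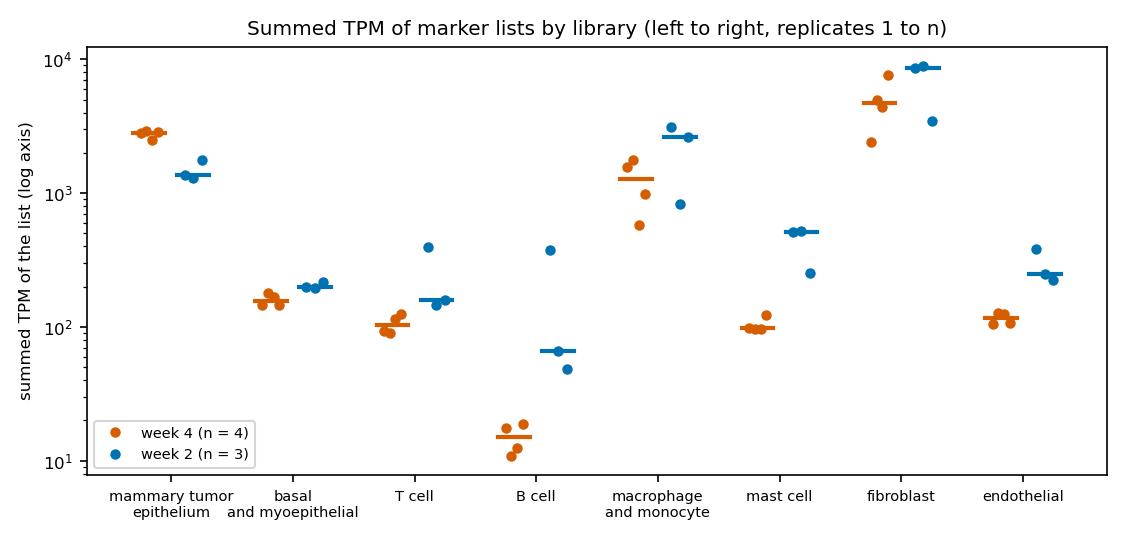
Summed TPM (log axis) of marker lists in each library, week 4 (4 orange points) left of week 2 (3 blue points) within each list, with horizontal bars at the medians. The epithelial sums of week 4 lie above those of week 2, and the T cell, B cell, endothelial and mast cell sums of week 4 lie below those of week 2. The mast cell sum is mostly Kit at week 4 and Il1rl1 at week 2.

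The largest rises included an intermediate filament gene, transcription factors of stem cells and epidermis, and Mogat1. Gfap, the filament protein that marks astrocytes (chromosome 11, 102887336 to 102897200), had 19.5, 16.4, 15.5 and 36.1 TPM at week 4, against 0.417, 0.465 and 0.435 TPM at week 2 (log2 fold change 3.91, SE 0.31, adjusted p = 9.52e-06). Sox2, a transcription factor of stem cells and neural progenitors (chromosome 3, 34649995 to 34652461), had 40.8, 37.5, 29.7 and 51.3 TPM at week 4, against 4.16, 2.08 and 3.59 TPM at week 2 (log2 fold change 3.26, SE 0.21, adjusted p = 4.03e-06). Both were under 5 TPM in every week 2 library and above 15 TPM in every week 4 library. Mogat1, an enzyme that makes diacylglycerol from monoacylglycerol (chromosome 1, 78511060 to 78606964), had 39.6, 36.9, 35.8 and 36.0 TPM at week 4, against 1.94, 1.02 and 3.87 TPM at week 2 (log2 fold change 3.63, SE 0.28, adjusted p = 9.48e-06). Its 4 week 4 values were the closest to each other among the genes of this paragraph. Zfp750, a zinc finger factor of epidermal differentiation, had 33.6, 35.7, 35.3 and 54.6 TPM at week 4, against 3.62, 2.36 and 2.81 TPM at week 2. 

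Other genes among the 25 largest rises encode kinases, receptors, secreted proteins and transporters. Stk32b, a kinase of little-known function, had 16.1, 17.8, 16.1 and 13.2 TPM at week 4, against 1.12, 0.204 and 0.975 TPM at week 2 (log2 fold change 3.29). Aatk, a neuronal kinase linked to apoptosis, was at 23.6 ± 2.78 TPM at week 4 and 1.85 ± 0.896 TPM at week 2 (SD, n = 4 and 3, as for every mean given below), a log2 fold change of 3.16. Hunk, a kinase known from mammary tumors, was at 24.4 ± 2.42 TPM at week 4 and 2.70 ± 0.748 TPM at week 2 (log2 fold change 2.80). Tnfrsf19, a receptor of the TNF family known from stem cells, had 25.3, 20.5, 19.7 and 25.6 TPM at week 4, against 1.90, 1.12 and 3.07 TPM at week 2 (log2 fold change 3.01). Of the secreted proteins, Crispld2, a cysteine-rich secreted protein, was at 200.3 ± 44.9 TPM at week 4 and 25.1 ± 8.44 TPM at week 2, and Car6, a secreted carbonic anhydrase of saliva, at 12.0 ± 0.759 TPM at week 4 and 0.994 ± 0.688 TPM at week 2. Lao1, an L-amino acid oxidase known from mouse milk, was at 12.7 ± 3.13 TPM at week 4 and 0.496 ± 0.154 TPM at week 2. Dcpp1 and Dcpp2, near-identical salivary genes whose reads may be shared, were at 23.4 TPM at week 4 and 2.23 TPM at week 2 and at 36.5 TPM at week 4 and 3.94 TPM at week 2, and the log2 fold change of Dcpp2 of 3.21 was 2.51 without week 2 replicate 1 and 3.87 without week 2 replicate 3. The transporter of neutral amino acids Slc6a15 was at 52.8 ± 8.52 TPM at week 4 and 6.16 ± 2.07 TPM at week 2, the keratin Krt23 at 30.9 ± 3.52 TPM at week 4 and 3.62 ± 1.20 TPM at week 2 and the neuronal pentraxin Nptx1 at 114 ± 5.87 TPM at week 4 and 17.1 ± 9.47 TPM at week 2.

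The largest falls were deeper than the largest rises, and many ended near 0. Il1rl1, the receptor of interleukin 33 (chromosome 1, 40404864 to 40465418), had 0.801, 1.49, 1.41 and 3.22 TPM at week 4, against 427, 453 and 152 TPM at week 2 (log2 fold change -6.90, SE 0.43, adjusted p = 3.94e-06). It is also a marker of mast cells, whose proteases fell as well: Mcpt4 was at 0.363 TPM at week 4 and 21.1 TPM at week 2, Cma1 at 0.124 TPM at week 4 and 10.5 TPM at week 2 and Cpa3 at 0.207 TPM at week 4 and 11.1 TPM at week 2, each far under the Il1rl1 level of week 2. Dynap, a membrane protein that can keep cells from dying, had 0.141, 0.288, 0 and 0.141 TPM at week 4, against 140.4, 107 and 83.2 TPM at week 2 (log2 fold change -6.58, SE 0.28, adjusted p = 6.67e-07). Prl2c2, one of the proliferins, hormones of the prolactin family first found in growing fibroblasts and placenta, had 0, 0.181, 0 and 0 TPM at week 4, against 105, 103 and 57.7 TPM at week 2. Its near-identical neighbour Prl2c3, listed at 0 in all 4 week 4 libraries, had 64.6, 66.6 and 16.6 TPM at week 2, and reads of this pair may be shared between the genes. Msln, a surface protein of mesothelium, was also listed at 0 in all week 4 libraries and had 26.8, 16.6 and 11.4 TPM at week 2.

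Among abundant genes, S100a4, a small calcium sensor of motile and mesenchymal cells, had 36.7, 33.6, 27.6 and 27.1 TPM at week 4, against 1133, 1846 and 704 TPM at week 2 (log2 fold change -5.15, SE 0.29, adjusted p = 2.34e-06). Aqp1, a water channel also found in vessels, had 10.2, 12.4, 10.8 and 8.89 TPM at week 4, against 850.1, 574 and 153 TPM at week 2 (log2 fold change -5.20, SE 0.52, adjusted p = 3.36e-05). The week 2 values of Aqp1 differed more than 5-fold among themselves, and each lay above every week 4 value. Hmga2, a DNA-bending chromatin protein of embryonic and tumor cells, had 1.70, 3.32, 0.604 and 2.86 TPM at week 4, against 117, 108 and 46.3 TPM at week 2 (log2 fold change -4.86, SE 0.41, adjusted p = 1.37e-05). Grem1, a secreted BMP antagonist, had 0, 0.298, 0 and 0.194 TPM at week 4, against 38.9, 35.2 and 20.4 TPM at week 2 (log2 fold change -4.81). Nppb, the natriuretic peptide of stretched heart muscle, had 49.8, 51.1 and 22.0 TPM at week 2 and at most 0.195 TPM at week 4. Also beyond a fall of 4 on the log2 scale were, among others, Crabp1, which binds retinoic acid (-4.97), the guidance signal Sema3a (-4.93), the cytokine Clcf1 (-4.72), the chemokine Ccl5 (-4.41), Brinp3 (-4.43), Sh3gl3 (-4.38), Inmt (-4.26), the long noncoding RNA Fendrr (-4.04) and Ubd, a ubiquitin-like protein (-4.01). Without week 2 replicate 3, the log2 fold change was -5.93 for Aqp1, -5.01 for Ccl5 and -5.88 for Crabp1, and that of Crabp1 was -4.36 without week 2 replicate 2. In 21 of the 25 largest falls, week 2 replicate 3 was the lowest of the week 2 libraries. In the 25 largest rises it was the highest week 2 library for 13 genes and the lowest for 0.

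**Figure D3:**
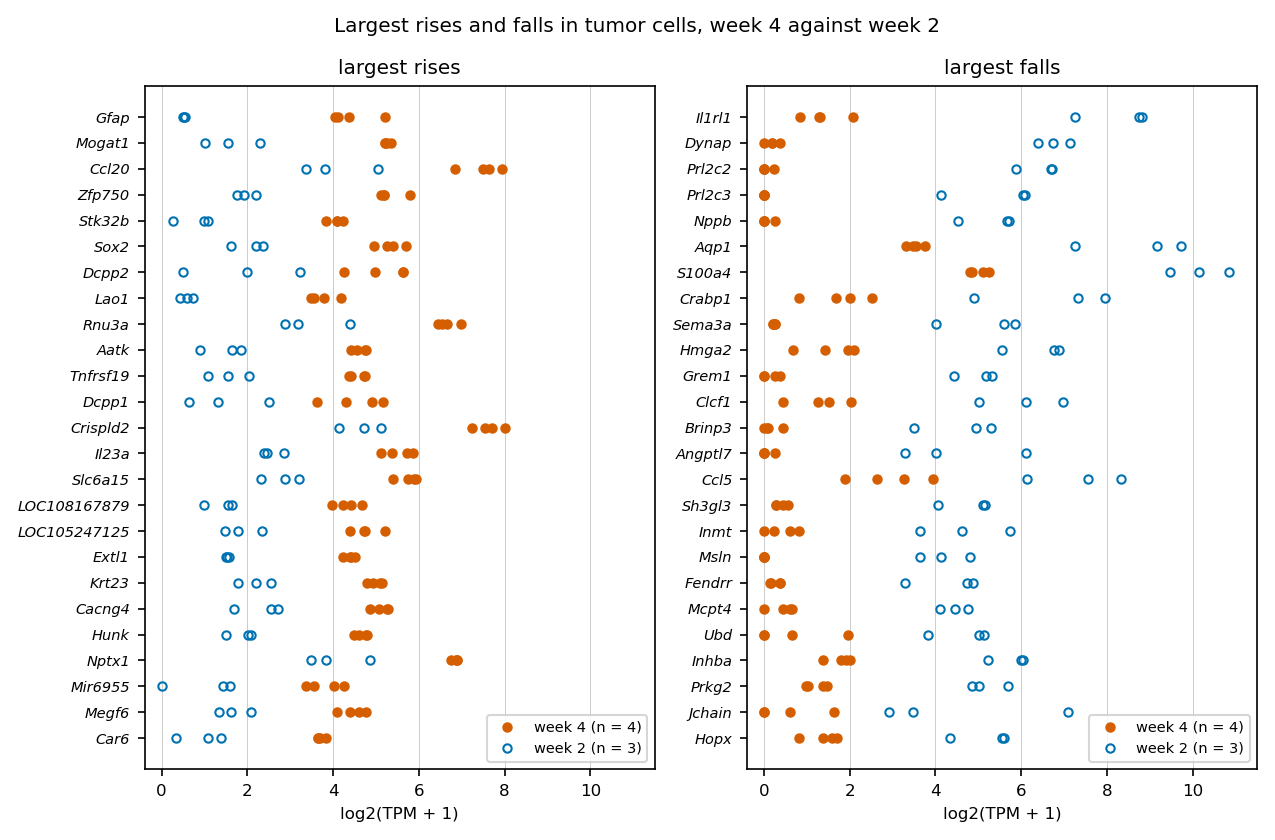
log2(TPM + 1) of each library for the 25 genes with the largest rise (left panel) and the 25 with the largest fall (right panel) among genes without overlap and with a mean of at least 10 TPM in the higher week; orange filled points are week 4 (n = 4), blue open points week 2 (n = 3). In both panels the 2 weeks stand apart for every gene, since that chose them, and the falls reach a log2 fold change of -6.90 (Il1rl1) and the rises one of 3.91 (Gfap).

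Promoters of 5 changed genes are shown because they carry letters that factors of the tested lists are known to bind. The AP-1 motif TGANTCA is bound by FOS and JUN family proteins, among them FOSL1, whose gene fell, and the grainyhead motif AACCNGTT by GRHL proteins, of which Grhl1 and Grhl2 rose. The sequences are those of RefSeq on GRCm38.p6, from 250 bases before to 50 after the start that the RefSeq promoter table uses, 5′ to 3′ on the gene's strand, with motif matches in capitals. For Cgn and Prl2c3 that start lies inside the annotated span of the gene, downstream of its outermost end. Prl2c3 (chr13:12800030-12800329 on the minus strand), Sprr1a (chr3:92485832-92486131 on the minus strand) and Upp1 (chr11:9117758-9118057 on the plus strand) fell and hold AP-1 matches, 2 of them in Sprr1a. Gfap (chr11:102897151-102897450 on the minus strand) and Cgn (chr3:94786433-94786732 on the minus strand) rose and hold a grainyhead match each, that of Cgn in its opposite-strand form AACNGGTT. The 5 were chosen after their values were seen.
Prl2c3: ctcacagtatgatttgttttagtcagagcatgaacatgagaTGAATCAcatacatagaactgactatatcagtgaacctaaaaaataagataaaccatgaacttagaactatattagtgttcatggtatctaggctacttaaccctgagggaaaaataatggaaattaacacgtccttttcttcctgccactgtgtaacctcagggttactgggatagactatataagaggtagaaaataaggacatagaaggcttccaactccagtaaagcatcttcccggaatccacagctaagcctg
Sprr1a: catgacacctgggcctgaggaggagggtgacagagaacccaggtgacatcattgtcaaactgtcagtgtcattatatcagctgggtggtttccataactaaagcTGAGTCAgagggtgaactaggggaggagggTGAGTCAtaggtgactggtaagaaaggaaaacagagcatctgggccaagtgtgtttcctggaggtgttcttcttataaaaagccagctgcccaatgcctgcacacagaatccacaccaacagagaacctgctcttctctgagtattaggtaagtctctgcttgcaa
Upp1: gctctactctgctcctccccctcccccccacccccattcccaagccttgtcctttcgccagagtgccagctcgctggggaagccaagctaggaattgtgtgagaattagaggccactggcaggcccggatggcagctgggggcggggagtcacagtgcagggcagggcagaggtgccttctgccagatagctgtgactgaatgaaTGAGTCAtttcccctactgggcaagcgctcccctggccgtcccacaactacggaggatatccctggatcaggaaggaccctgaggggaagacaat
Gfap: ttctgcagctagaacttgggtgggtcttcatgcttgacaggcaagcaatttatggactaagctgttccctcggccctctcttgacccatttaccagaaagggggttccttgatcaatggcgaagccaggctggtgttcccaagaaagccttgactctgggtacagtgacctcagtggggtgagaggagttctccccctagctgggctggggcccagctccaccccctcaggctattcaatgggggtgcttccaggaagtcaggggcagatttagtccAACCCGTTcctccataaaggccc
Cgn: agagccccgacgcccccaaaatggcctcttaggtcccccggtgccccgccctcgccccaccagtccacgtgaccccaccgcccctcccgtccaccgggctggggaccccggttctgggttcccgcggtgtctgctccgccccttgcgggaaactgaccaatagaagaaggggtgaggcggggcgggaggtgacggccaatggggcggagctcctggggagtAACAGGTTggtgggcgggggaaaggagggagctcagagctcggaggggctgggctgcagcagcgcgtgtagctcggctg

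All motifs were searched on both strands: TGANTCA and GCCNNNGGC read the same on either strand, AACCNGTT and GGAATG do not. Matches of different motifs were counted separately, also where they overlap. Promoters of this kind were matched for 10744 tested genes. AP-1 letters stood in 6.32% of 854 promoters of genes that rose at least 2-fold, in 12.1% of 712 promoters of genes that fell at least 2-fold and in 5.46% of all 10744. Grainyhead letters stood in 2.81%, 1.97% and 1.83% of the same sets. The AP-2 letters GCCNNNGGC stood in 26.2%, 18.96% and 24.6%, and the TEAD letters GGAATG in 12.5%, 16.01% and 12.1%. A match describes the letters of this window and no more.

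Growth factor genes changed in a mixed way, with EGF family ligands on both sides. Of 36 tested ligands, 8 rose and 15 fell, against a background of 29.2% and 17.1%, and their median log2 fold change was -0.53. The rises numbered 3 without week 2 replicate 2 and 4 without week 4 replicate 3, and over the alternatives 3 to 8 rose and 10 to 17 fell. Areg, an EGF receptor ligand of the growing mammary duct, had 10.5, 16.8, 8.51 and 17.2 TPM at week 4, against 239.7, 169 and 109 TPM at week 2 (log2 fold change -3.59, SE 0.32, adjusted p = 1.68e-05). Gdnf, a ligand of the receptor RET, had 0, 0.616, 0.0787 and 0.355 TPM at week 4, against 16.2, 12.3 and 4.05 TPM at week 2 (log2 fold change -3.08, SE 0.42, adjusted p = 0.000201). Tgfa, another EGF receptor ligand, had 28.0, 34.0, 29.7 and 36.9 TPM at week 4, against 6.43, 3.51 and 6.80 TPM at week 2 (log2 fold change 2.37, SE 0.18, adjusted p = 9.48e-06). Areg and Tgfa thus moved in opposite directions, each without overlap of the weeks. The EGF family members Btc (-2.25), Hbegf (-1.89) and Epgn (-1.38, adjusted p = 0.0763 without week 2 replicates 2 and 3) fell with Areg. Of the VEGF family, which acts on vessels, Pgf (2.17) and Vegfa (1.08) rose. Pgf was at 139 ± 19.4 TPM at week 4 and 31.6 ± 14.3 TPM at week 2.

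Receptor tyrosine kinases rose in 21 of 40 and fell in 6, with a median of 0.64. The list summed to 1384 to 1626 TPM at week 4, and to 1663, 893 and 766 TPM in week 2 replicates 1, 2 and 3. By this sum, week 2 replicate 1 lay above every week 4 library. Over the alternatives, 16 to 23 rose and 2 to 10 fell. Kit, the stem cell factor receptor of luminal progenitors and mast cells, had 90.2, 86.8, 88.6 and 114 TPM at week 4, against 24.4, 12.6 and 15.5 TPM at week 2 (log2 fold change 2.42, SE 0.19, adjusted p = 1.11e-05). Ptk7, a pseudokinase of planar polarity, had 94.2, 98.4, 101 and 94.8 TPM at week 4, against 47.2, 18.4 and 22.0 TPM at week 2 (log2 fold change 1.82). Epha5, an ephrin receptor, had 7.30, 4.96, 6.80 and 10.6 TPM at week 4, against 0.375, 0.106 and 0.546 TPM at week 2 (log2 fold change 2.62). All 3 were higher in every week 4 library than in any week 2 library, where 45.0% of all tested genes lacked overlap in either direction. Erbb2 (1.58) and Erbb3 (1.35), partners of the EGF receptor, rose, as did the collagen receptor Ddr1 (1.69) and the ephrin receptor Ephb4 (1.65). The TAM receptors, which bind the ligand GAS6, split: Tyro3 (1.29) and Mertk (1.51) rose and Axl (-1.48) fell, the last with an adjusted p of 0.0548 with array weights. Of the falls, Kdr (-1.25) and Tie1 (-1.36) are receptors of endothelial cells, whose markers fell too. Their adjusted p was 0.106 and 0.143 with array weights, and that of Tie1 was 0.0543 without week 2 replicate 1.

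Of 25 tested genes that ERK signalling switches on, 13 rose and 6 fell (median 0.40), and over the alternatives 9 to 16 rose and 5 to 8 fell. The rises held the ETS factors Etv5 (1.57) and Etv4 (1.17) and the feedback inhibitors Spry1 (1.30), Spry4 (0.97) and Dusp4 (1.36). The falls held Fosl1, an AP-1 subunit (2.64, 3.00, 3.54 and 4.56 TPM at week 4, against 117, 47.3 and 12.7 TPM at week 2, log2 fold change -3.29, SE 0.58, adjusted p = 0.00103), and Hmga1, the relative of Hmga2 (8.67, 8.32, 6.69 and 9.54 TPM at week 4, against 169.6, 78.5 and 40.7 TPM at week 2, log2 fold change -3.16, SE 0.38, adjusted p = 8.93e-05). Both had the highest level in week 2 replicate 1 and the lowest week 2 level in replicate 3, with no overlap of the weeks, and the log2 fold change of Fosl1 was -2.56 without replicate 1 and -4.11 without replicate 3 of week 2. Plaur, the urokinase receptor (-1.59), and Emp1 (-1.25) fell as well.

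Of 44 tested genes of the Wnt pathway, 19 rose and 7 fell (median 0.50), and over the alternatives 14 to 24 rose and 4 to 10 fell. Receptors among the rises were the frizzleds Fzd9 (2.10), Fzd3 (1.56) and Fzd7 (1.34) and the coreceptor Lrp5 (1.81). Feedback inhibitors and antagonists among the rises were Rnf43 (2.29), Znrf3 (1.42) and the secreted antagonist Wif1. Wif1 had 202, 130.5, 159 and 175 TPM at week 4, against 32.7, 22.6 and 36.5 TPM at week 2 (log2 fold change 2.41, SE 0.18, adjusted p = 8.53e-06). The lowest week 4 value of Wif1 was above 3 times the highest week 2 value. The ligand Wnt5a (-2.46, and -3.06 without week 2 replicate 3) and the antagonist Dkk2 (-2.54) fell.

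Notch genes rose in 12 of 24 and fell in 4 (median 0.55), with Notch1 at 73.7, 71.1, 84.5 and 75.9 TPM at week 4, against 33.2, 12.3 and 13.9 TPM at week 2 (log2 fold change 2.03, SE 0.26, adjusted p = 0.00013) and its target Hey1 at 103, 80.4, 82.2 and 82.8 TPM at week 4, against 26.3, 22.8 and 41.6 TPM at week 2 (log2 fold change 1.53). The ligand gene Jag2 (-0.82) fell. These counts were not stable: 7 rose and 6 fell after transcript length centring, 7 rose in a fit of the 7 libraries alone, 5 rose without week 2 replicate 2 and 4 rose with 5 falls without week 2 replicates 2 and 3.

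The TGF-beta, activin and BMP pathway changed in both directions, 13 rises and 10 falls in 43, with a balance that turned: 17 rose and 9 fell without week 2 replicate 1, 9 rose and 10 fell without week 2 replicate 2, 10 rose and 13 fell without week 2 replicate 3, 9 rose and 19 fell without week 2 replicates 2 and 3 and 8 rose and 11 fell after median-of-ratios rescaling. Without week 4 replicate 4, 9 rose and 10 fell. With all libraries the shares were 30.2% higher and 23.3% lower, against 29.2% and 17.1% of all tested genes. The activin subunits moved apart: Inhbb was at 135 ± 18.2 TPM at week 4 and 31.8 ± 7.68 TPM at week 2 (log2 fold change 2.06, SE 0.17, adjusted p = 1.19e-05), and Inhba had 1.60, 2.75, 2.48 and 3.02 TPM at week 4, against 65.0, 62.6 and 36.3 TPM at week 2 (log2 fold change -3.98, SE 0.34, adjusted p = 1.44e-05). Inhbb did not overlap between the weeks, and Inhba was among the largest falls, which were chosen without overlap. The ligand Bmp2 (-2.41) and the BMP targets Id3 (-2.14), Id4 (-1.24) and Id1 (-0.86) fell with the antagonist Grem1.

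Of the TNF family, most ligands and receptors that changed fell. 5 of 33 tested rose and 19 fell (median -0.72), and 11 fell with array weights. Tnf itself, the founding cytokine, was among the rises, with 464, 349, 323 and 387 TPM at week 4, against 64.9, 52.6 and 82.5 TPM at week 2 (log2 fold change 2.51, SE 0.25, adjusted p = 2.77e-05). Tnfrsf21, known as death receptor 6, was at 415 ± 27.4 TPM at week 4 and 134 ± 35.4 TPM at week 2. Both were higher in every week 4 library. Eda2r, the ectodysplasin A2 receptor and a p53 target, had 1.05, 1.62, 1.84 and 1.99 TPM at week 4, against 24.3, 31.5 and 14.1 TPM at week 2 (log2 fold change -3.15, SE 0.33, adjusted p = 3.87e-05). The death ligand Tnfsf10, also called TRAIL (-2.36), Cd40 (-1.90) and the lymphocyte gene Ltb (-1.88) fell, Ltb beside the fall of B and T cell markers. Cd40 had 24.1, 8.08 and 23.6 TPM in week 2 replicates 1, 2 and 3. In these libraries B cell markers summed to 376, 66.5 and 48.7 TPM, and macrophage and monocyte markers to 3112, 825 and 2607 TPM. The cells that Cd40 came from were not tested.

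Interleukins and their receptors rose in 7 of 43 and fell in 15 (median -0.58), and over the alternatives 4 to 8 rose and 12 to 18 fell. Il23a, a subunit of interleukin 23, had 40.1, 51.5, 33.5 and 57.4 TPM at week 4, against 4.51, 4.24 and 6.20 TPM at week 2 (log2 fold change 2.95, SE 0.23, adjusted p = 9.52e-06). Clcf1 and Il11, cytokines that signal through gp130, had the opposite pattern: Clcf1 had 1.86, 3.08, 0.366 and 1.40 TPM at week 4, against 124, 68.3 and 31.3 TPM at week 2. Il11 had 0.899, 1.70, 2.60 and 1.20 TPM at week 4, against 52.4, 20.7 and 13.7 TPM at week 2 (log2 fold change -3.35, SE 0.44, adjusted p = 0.000161). Il23a and Clcf1 were among the extremes chosen without overlap, and Il11 did not overlap between the weeks either. Il33, an alarm signal of epithelial and vessel cells (-1.61), fell with its receptor Il1rl1, and Il18 (-1.72) and Il34 (-2.03) fell too.

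Of NF-kB pathway and target genes, 6 of 28 rose and 7 fell. The rises held Ccl20 and the far more abundant Lcn2, which had the largest gain in mean TPM of all genes past the threshold. Ccl20, a chemokine of mucosal epithelium, had 246, 198, 113 and 180.5 TPM at week 4, against 9.30, 12.96 and 32.3 TPM at week 2 (log2 fold change 3.41, SE 0.35, adjusted p = 3.81e-05), and Lcn2, an iron-siderophore binding protein, had 7369, 6644, 7099.6 and 6884 TPM at week 4, against 1219, 1697 and 2960.1 TPM at week 2 (log2 fold change 1.93, SE 0.24, adjusted p = 0.00012). Lcn2 did not overlap between the weeks, and Ccl20 was among the largest rises, which were chosen without overlap. The pathway members Traf1 (-1.59), Rel (-1.13), Birc3 (-1.11) and Nfkbie (-0.87) fell. The count of rises was 3 without week 2 replicate 2 and 9, against 6 falls, without week 2 replicate 1, and 6 rose and 5 fell without week 4 replicate 3. The count of falls was 4 with array weights, 11 without week 2 replicate 3, 13 after median-of-ratios or quantile scaling, 12 after transcript length centring and 14 without week 2 replicates 2 and 3.

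Of 25 prostaglandin and leukotriene genes, 5 rose and 7 fell, and the rises numbered 1 without week 2 replicate 2 or week 2 replicate 3 and 3 without week 4 replicate 1 or week 4 replicate 4. Ptgs2, the inducible cyclooxygenase that starts prostaglandin synthesis, had 54.9, 80.1, 86.4 and 80.5 TPM at week 4, against 819, 657 and 412 TPM at week 2 (log2 fold change -3.01, SE 0.26, adjusted p = 1.54e-05). Pla2g4a, which frees its substrate (-0.94), Ptgs1 (-1.34) and the leukotriene synthase Ltc4s (-2.05) fell as well. Among 31 genes of vasoactive peptides, neuropeptides and their receptors, 7 rose and 9 fell. Adm, the vessel-widening peptide adrenomedullin, was at 138 ± 61.4 TPM at week 4 and 33.6 ± 3.82 TPM at week 2 (log2 fold change 1.91, SE 0.26, adjusted p = 0.000209), while its receptor parts Calcrl (-1.50, adjusted p = 0.0501 without week 2 replicates 2 and 3) and Ramp3 (-1.97) fell.

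**Figure D4:**
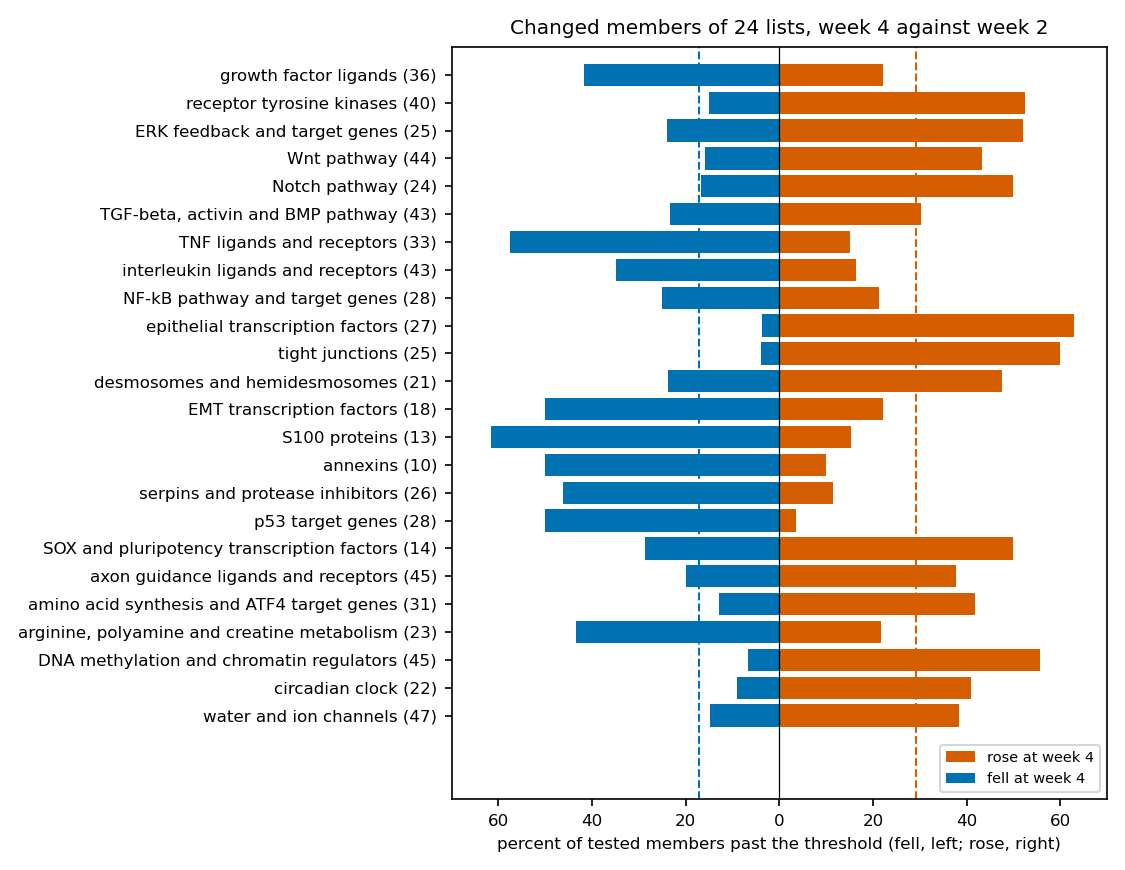
Percent of tested members that rose (orange, to the right) and fell (blue, to the left) at week 4 against week 2 for 24 of the 53 lists of pathways and families, with the number tested beside each name. Dashed lines mark the background over all tested genes, 29.2% higher and 17.1% lower; tight junctions and epithelial transcription factors lie far beyond the background on the side of rises, and p53 targets, S100 proteins and TNF family genes on the side of falls.

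Transcription factors of epithelial cells rose. Of 27 tested, 17 rose and 1 fell, with a median of 0.72, beside 0.11 over all genes. Tfap2c, the AP-2 factor of trophoblast and luminal cells, had 263, 284, 311 and 295 TPM at week 4, against 64.8, 52.4 and 74.7 TPM at week 2 (log2 fold change 2.17, SE 0.13, adjusted p = 3.63e-06). Elf5, the ETS factor of luminal progenitors and alveoli, had 102, 98.0, 111 and 108 TPM at week 4, against 19.97, 25.001 and 35.5 TPM at week 2 (log2 fold change 1.97, SE 0.17, adjusted p = 1.37e-05). Cebpb, a bZIP factor of mammary and inflammatory genes, had 1379, 1012, 949 and 1244 TPM at week 4, against 554, 285 and 311 TPM at week 2 (log2 fold change 1.63). In each, the lowest week 4 value lay above the highest week 2 value. The grainyhead factors Grhl2 (1.52) and Grhl1 (1.47), Ehf (1.54) and Tfap2b (1.20) rose as well. Over the alternatives, 11 to 19 rose, with the lowest count without week 2 replicates 2 and 3.

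Tight junction genes followed the same direction, with 15 rises and 1 fall in 25 tested (median 0.66) and 12 to 15 rises over the alternatives. Cgn, the scaffold protein cingulin, had 45.7, 49.5, 52.6 and 54.2 TPM at week 4, against 13.3, 11.1 and 13.96 TPM at week 2 (log2 fold change 1.90, SE 0.12, adjusted p = 3.94e-06). Cldn3, a sealing claudin, had 154, 180.2, 123 and 196 TPM at week 4, against 50.9, 40.2 and 51.0 TPM at week 2 (log2 fold change 1.75, SE 0.19, adjusted p = 4.86e-05). Cldn2, a claudin that forms a cation pore, had 49.9, 38.2, 38.0 and 42.8 TPM at week 4, against 8.06, 8.47 and 17.7 TPM at week 2 (log2 fold change 1.88, SE 0.25, adjusted p = 0.000169). None of these overlapped between the weeks. The polarity gene Pard6b (1.49), Marveld2 (1.37), Cldn8 (1.32), Cldn7 (1.05) and Ocln, which encodes occludin (0.66), rose. The member that fell was Cldn5 (-1.64), the claudin of endothelium.

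Desmosome and hemidesmosome genes rose in 10 of 21 and fell in 5 (3 falls without week 2 replicate 2). Jup, plakoglobin, had 132, 140.4, 119.9 and 129 TPM at week 4, against 62.0, 27.3 and 30.1 TPM at week 2 (log2 fold change 1.78), and Itga6, the laminin-binding integrin subunit of hemidesmosomes, had 312, 330.4, 345 and 350.4 TPM at week 4, against 125, 83.4 and 115 TPM at week 2 (log2 fold change 1.64). Desmosome parts of stratified epidermis went the other way: Pkp1 fell (0.222, 0.529, 0.041 and 0 TPM at week 4, against 10.4, 8.89 and 4.28 TPM at week 2), and Dsg3 was listed at 0 in every week 4 library and averaged 1.01 TPM at week 2. Of 18 cadherin genes 7 rose and 4 fell, but 7 rose and 7 fell without week 2 replicate 3, 4 rose and 6 fell without week 2 replicates 2 and 3 and 6 rose and 8 fell after transcript length centring. Celsr2, a seven-pass cadherin of planar polarity, had 76.1, 73.3, 67.4 and 81.3 TPM at week 4, against 15.8, 8.19 and 11.1 TPM at week 2 (log2 fold change 2.61, SE 0.18, adjusted p = 4.52e-06). E-cadherin, Cdh1, rose (159 ± 21.6 TPM at week 4 and 82.5 ± 21.4 TPM at week 2, log2 fold change 0.96, SE 0.17, adjusted p = 0.00122) and N-cadherin, Cdh2, fell (0.478, 0.496, 0.606 and 0.78 TPM at week 4, against 7.98, 5.72 and 2.52 TPM at week 2, log2 fold change -1.91, SE 0.31, adjusted p = 0.000606). The weeks did not overlap for either.

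Factors of epithelial-mesenchymal transition fell in 9 and rose in 4 of 18 (median -0.66), and over the alternatives 6 to 10 fell and 2 to 5 rose. Foxc2, a forkhead factor of mesenchyme, had 4.00, 4.47, 3.69 and 5.64 TPM at week 4, against 36.1, 22.3 and 7.23 TPM at week 2 (log2 fold change -1.83, SE 0.43, adjusted p = 0.00521; log2 fold change -2.44 without week 2 replicate 3). Prrx2, a homeobox factor of mesenchyme, had 27.6, 17.0, 20.2 and 23.6 TPM at week 4, against 96.9, 95.4 and 33.9 TPM at week 2 (log2 fold change -1.60, SE 0.32, adjusted p = 0.00221). Zeb1 (-1.38), Zeb2 (-0.89) and Snai2 (-0.69), repressors of E-cadherin, fell, whereas their relative Snai1 (0.74) and Foxc1 (1.03) rose. The adjusted p was 0.0571 for Zeb2 with array weights, and the calls of Snai1 and Snai2 did not hold in many alternatives. In a fit of the 7 libraries alone their adjusted p was 0.0848 and 0.0507 and with a replicate block 0.0766 and 0.051, that of Snai1 was 0.0741 with no filter on low values and 0.0557 after median-of-ratios rescaling, and that of Snai2 was 0.0916 with array weights and 0.264 without week 2 replicates 2 and 3. Without week 2 replicate 2 their adjusted p was 0.14 and 0.0952, without week 2 replicate 3 0.173 and 0.0553, without week 4 replicate 1 0.0766 and 0.0573, and without week 4 replicate 4 0.0926 and 0.0624, and that of Snai1 was 0.0923 without week 4 replicate 2, while its log2 fold change was -0.03 without week 2 replicates 2 and 3. Vim, the mesenchymal intermediate filament, had 608, 729, 766 and 738 TPM at week 4, against 5968, 4912 and 2015 TPM at week 2 (log2 fold change -2.46, SE 0.34, adjusted p = 0.000207), one of the largest falls by TPM. Its week 4 values lay within 608 to 766 TPM and its lowest week 2 value was in replicate 3.

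**Figure D5:**
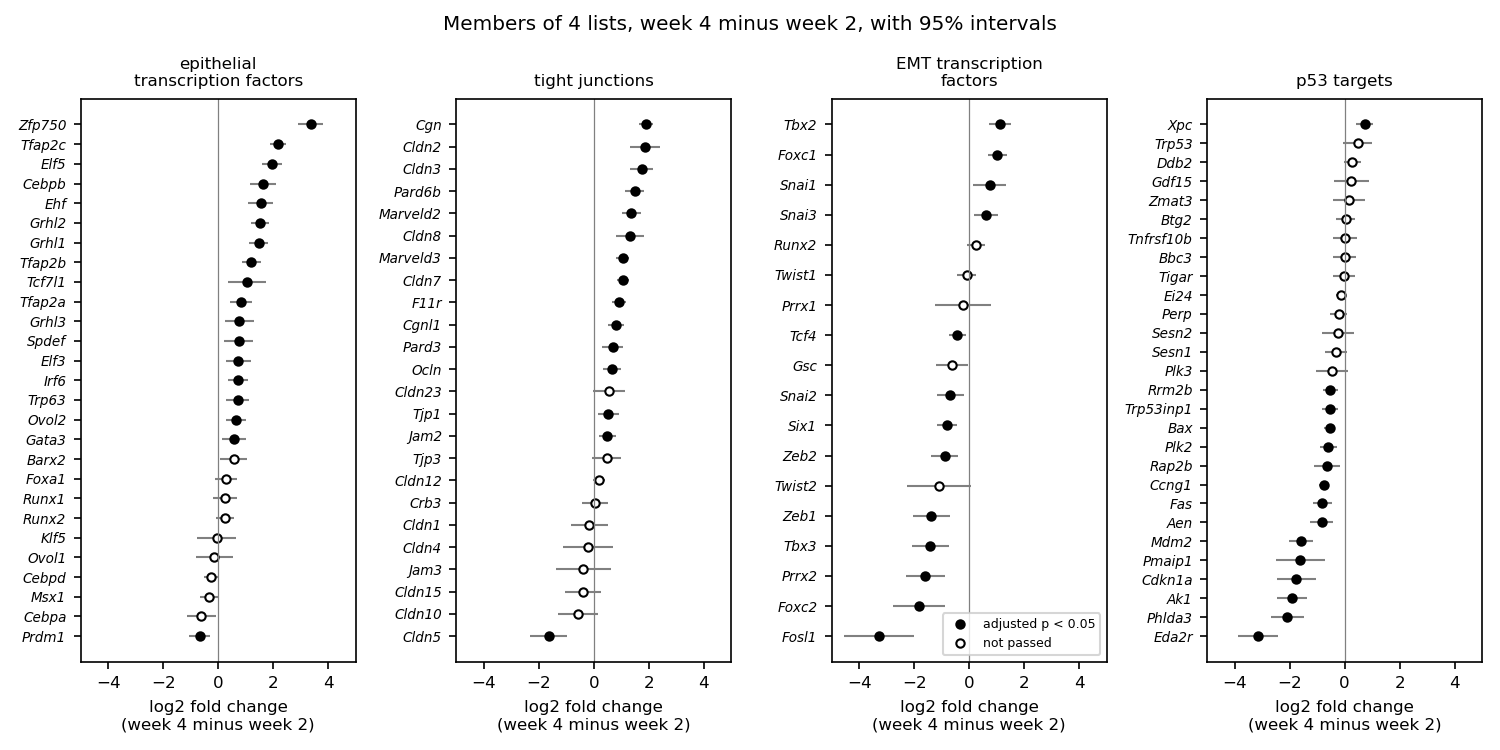
log2 fold change with 95% interval, week 4 minus week 2, of tested members of 4 lists (epithelial transcription factors, tight junctions, transcription factors of epithelial-mesenchymal transition, p53 targets), sorted by value; filled points passed the adjusted p of 0.05 and open points did not. Most filled points of the first 2 panels lie right of 0 and most of the last 2 lie left of 0.

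S100 proteins, small calcium sensors, fell in 8 of 13 and rose in 2 (median -0.60). 5 fell without week 2 replicate 2. S100a6 had 291, 401, 398 and 417 TPM at week 4, against 1821, 2419 and 1078 TPM at week 2 (log2 fold change -2.17, SE 0.25, adjusted p = 6.87e-05), and with S100a4 it was among the 15 largest falls in TPM. S100a8, an antimicrobial subunit of myeloid and stressed epithelial cells, rose, with 176, 196, 124 and 180.4 TPM at week 4, against 14.9, 24.01 and 61.2 TPM at week 2 (log2 fold change 2.53, SE 0.36, adjusted p = 0.000293). Its partner S100a9 rose as well. Camp, an antimicrobial peptide gene of myeloid cells, also rose (11.3, 8.10, 8.47 and 11.1 TPM at week 4, against 3.58, 2.58 and 5.92 TPM at week 2). Annexins, which bind membranes in the presence of calcium and partner with S100 proteins, fell in 5 of 10 and rose in 1: Anxa1 had 411, 519, 531 and 575 TPM at week 4, against 1776, 2199 and 1181 TPM at week 2 (log2 fold change -1.72, SE 0.23, adjusted p = 0.000188), Anxa2, the partner of S100a10, had a log2 fold change of -1.53, and Anxa6 rose (1.03).

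Of 26 serpins, cystatins and Kunitz-type inhibitors, 3 rose and 12 fell (median -0.64), and over the alternatives 10 to 13 fell. Cst3, the secreted cathepsin inhibitor cystatin C, had 1924, 1754, 1742 and 1314 TPM at week 4, against 3681, 4761 and 6114 TPM at week 2 (log2 fold change -1.51, SE 0.19, adjusted p = 0.000111), with week 4 values all under 2000 TPM. Spint1 (1.58) and Spint2 (1.09), inhibitors of membrane serine proteases, rose together with the membrane proteases St14, matriptase (1.15), Prss8 (1.06) and Hpn, hepsin (1.88). Of 28 cathepsins, kallikreins and membrane serine proteases, 7 rose and 8 fell, the deepest fall being Htra1 (21.8, 43.6, 44.1 and 55.4 TPM at week 4, against 582, 272 and 112 TPM at week 2, log2 fold change -2.71, SE 0.49, adjusted p = 0.00121). The log2 fold change of Htra1 was -3.31 without week 2 replicate 3, and the list had 10 rises and 5 falls without week 2 replicate 1.

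Targets of p53 fell. Of 28 tested, 14 fell and 1 rose, with a median of -0.49, beside 17.1% and 29.2% over all genes. Cdkn1a, the cyclin-dependent kinase inhibitor p21, had 66.6, 69.2, 53.9 and 74.98 TPM at week 4, against 391, 216 and 134 TPM at week 2 (log2 fold change -1.76, SE 0.32, adjusted p = 0.00116). Phlda3, an inhibitor of AKT, had 12.2, 16.8, 13.97 and 14.7 TPM at week 4, against 94.3, 70.7 and 39.4 TPM at week 2 (log2 fold change -2.09, SE 0.28, adjusted p = 0.000169). Ak1, an adenylate kinase, had 6.11, 9.61, 8.70 and 9.69 TPM at week 4, against 43.6, 40.8 and 23.0 TPM at week 2 (log2 fold change -1.92, SE 0.24, adjusted p = 0.000135). The weeks did not overlap for these 3. Mdm2, the ubiquitin ligase of p53, was at 31.6 ± 0.989 TPM at week 4 and 99.1 ± 24.2 TPM at week 2 (log2 fold change -1.59, SE 0.19, adjusted p = 9.50e-05). The death genes Pmaip1 (-1.62, adjusted p = 0.11 with array weights) and Bax (-0.55) and the cyclin Ccng1 (-0.74) fell, and the repair gene Xpc rose (0.72, adjusted p = 0.0569 without week 2 replicates 2 and 3). Over the alternatives, 11 to 17 members fell and 0 to 2 rose, which kept the direction in each.

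SOX and pluripotency transcription factors rose in 7 of 14 and fell in 4 (4 rose and 5 fell without week 2 replicates 2 and 3). Beside Sox2, the rises held Sox8 (1.41) and Sox4 (0.73), and 3 of the falls were in Sox7, Sox17 and Sox18, factors of endothelium. The adjusted p of Sox7 and Sox18 was 0.181 and 0.0604 with array weights, and that of Sox7 was 0.0775 without week 2 replicate 1 and 0.0561 without week 4 replicate 4. The remaining fall was Klf4, a factor of pluripotency and epithelial differentiation (46.4, 94.3, 80.04 and 137 TPM at week 4, against 978, 582 and 197 TPM at week 2, log2 fold change -2.52, SE 0.52, adjusted p = 0.0026; log2 fold change -3.16 without week 2 replicate 3). Neural and neuroendocrine genes rose in 9 of 24 and fell in 3. Nes, the progenitor filament nestin, was at 136 ± 11.8 TPM at week 4 and 43.2 ± 21.1 TPM at week 2 (log2 fold change 1.73, SE 0.23, adjusted p = 0.000162), and the neuronal tubulin Tubb3 fell (0.402, 0.41, 0.889 and 0.902 TPM at week 4, against 19.9, 6.44 and 1.80 TPM at week 2, log2 fold change -2.22, SE 0.50, adjusted p = 0.00427), with a log2 fold change of -1.48 without week 2 replicate 1 and -2.93 without week 2 replicate 3.

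Genes of axon guidance, which also act in epithelia and vessels, rose in 17 of 45 and fell in 9. Sema3a, a secreted repellent, had 0.158, 0.193, 0.157 and 0.189 TPM at week 4, against 47.8, 57.1 and 15.2 TPM at week 2 (log2 fold change -4.93, SE 0.41, adjusted p = 1.29e-05), and its receptors Nrp1 (-1.41) and Nrp2 (-1.88) fell, as did Sema5a (-2.52) and Sema7a (-1.93). The plexins of class B, Plxnb1 (1.64) and Plxnb2 (1.29), and Sema4g (1.78) and Sema4c (1.06) rose. Over this list, 14 rose and 15 fell after transcript length centring, 16 rose and 14 fell without week 2 replicate 3 and 12 rose and 19 fell without week 2 replicates 2 and 3.

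Amino acid synthesis and ATF4 target genes rose in 13 of 31 and fell in 4 (median 0.20). Amino acid transporters rose in 8 of 34 (23.5%, under the 29.2% of all tested genes) and fell in 1 (2.94%, against 17.1%). Trib3, a pseudokinase of the stress response (1.84), Cbs, which starts cysteine synthesis from homocysteine (1.60), and the transporter pair Slc7a5 (1.10) and Slc3a2 (0.84) rose. Nupr1, a stress-induced chromatin protein, fell (81.6, 113, 105 and 145 TPM at week 4, against 567, 817 and 453 TPM at week 2, log2 fold change -2.44, SE 0.22, adjusted p = 1.96e-05). Without week 2 replicates 2 and 3, 7 synthesis genes rose and 7 fell, 5 transporters rose and 6 fell, and the adjusted p of Slc7a5 and Slc3a2 was 0.092 and 0.132. Arginine, polyamine and creatine genes fell in 10 of 23 and rose in 5. Odc1, the first enzyme of polyamine synthesis, had 117, 108, 96.5 and 153 TPM at week 4, against 485, 444 and 231 TPM at week 2 (log2 fold change -1.65, SE 0.26, adjusted p = 0.000472). The falls numbered 6 without week 2 replicate 2 and 5 with array weights.

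Of 34 nucleotide genes, 11 rose and 10 fell, and over the alternatives 5 to 13 rose and 6 to 14 fell. Cad (1.50) and Dhodh (0.59), enzymes of pyrimidine synthesis from small precursors, rose, and the salvage enzymes Upp1, uridine phosphorylase (2.90, 4.76, 3.50 and 1.07 TPM at week 4, against 36.0, 53.2 and 30.4 TPM at week 2, log2 fold change -3.39, SE 0.31, adjusted p = 1.94e-05), Pnp (-1.29) and Hprt (-0.63) fell. Cytochrome P450, aldehyde and retinoid genes rose in 13 and fell in 10 of 45 (11 rose and 12 fell without week 2 replicate 2). Both retinoic acid binding proteins fell, Crabp1 with 0.755, 2.20, 4.78 and 3.01 TPM at week 4, against 160.3, 245 and 28.7 TPM at week 2 (log2 fold change -4.97, SE 0.74, adjusted p = 0.00036) and Crabp2 with a log2 fold change of -1.81, and Cyp24a1, which breaks down active vitamin D, rose (11.7, 9.97, 10.6 and 9.86 TPM at week 4, against 0.736, 1.53 and 1.09 TPM at week 2, log2 fold change 2.46, SE 0.19, adjusted p = 9.52e-06). Glutathione and NRF2 target genes rose in 10 and fell in 9 of 43, with Srxn1 the deepest fall (-2.19) and Me1 the largest rise (1.30). Of these genes, 7 rose and 8 fell without week 4 replicate 2 or 4, and 8 rose and 9 fell without week 4 replicate 1. Among all tested genes 29.2% rose and 17.1% fell. The shares were 32.4% and 29.4% for nucleotide genes and 28.9% and 22.2% for P450, aldehyde and retinoid genes. For glutathione and NRF2 target genes they were 23.3% and 20.9%. 

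Chromatin regulators rose in 25 of 45 and fell in 3 (median 0.44). Kdm5b, a histone demethylase, had 42.8, 47.5, 50.1 and 46.3 TPM at week 4, against 24.8, 14.6 and 14.8 TPM at week 2 (log2 fold change 1.36). The deepest fall was Sirt1, a deacetylase (-0.99). Of the list, 22 rose after transcript length centring and 13 rose without week 2 replicates 2 and 3. Genes of ribosome biogenesis and of the MYC network rose in 14 of 43 (32.6%, near the 29.2% of all tested genes) and fell in 2 (4.65%, against 17.1%). The rises numbered 9 without week 2 replicate 2, 22 without week 2 replicate 1 and 8 after median-of-ratios rescaling. Of 22 clock genes 9 rose and 2 fell: Cry2 (1.17) and Bhlhe41 (1.61) rose, and Arntl, which encodes BMAL1 (-0.91), fell. The clock falls numbered 4 without week 2 replicate 3, and 6 rose and 5 fell without week 2 replicates 2 and 3. The hour of sampling is not given in the sources used here.

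Channel genes rose in 18 of 47 and fell in 7, and the water channels split: Aqp5, found in secretory glands, had 312, 365, 247 and 337 TPM at week 4, against 105, 72.7 and 114 TPM at week 2 (log2 fold change 1.70, SE 0.16, adjusted p = 2.58e-05), against the fall of Aqp1. Of the channels, 11 rose and 11 fell without week 2 replicates 2 and 3. Of 21 mucins and apical secreted proteins 9 rose and 3 fell, and of 30 tetraspanins and surface stem markers 5 rose and 13 fell (3 rose and 12 fell without week 2 replicate 2 and 3 rose and 8 fell with array weights). Muc20 (1.92), Muc1 (1.15) and Prom1, the surface protein CD133 (1.27), rose, while Cd44 (-0.88), Ly6a, which encodes SCA-1 (-1.68), and Procr (-2.05) fell. Zinc transporters and metallothioneins rose in 5 of 21 (23.8%) and fell in 2 (9.52%), both under the shares of all tested genes (29.2% and 17.1%). Slc30a2, which loads zinc into milk vesicles, had 28.9, 28.8, 28.1 and 29.1 TPM at week 4, against 4.04, 2.70 and 6.20 TPM at week 2 (log2 fold change 2.54, SE 0.23, adjusted p = 1.67e-05). 

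The lists not described so far are given by their counts, many of which moved with the alternatives. Hormone receptors rose in 9 of 26 and fell in 3, and prolactin and growth hormone signalling genes rose in 5 of 17 and fell in 3. Without week 2 replicates 2 and 3, 5 rose and 9 fell of the hormone receptors and 4 rose and 8 fell of the prolactin and growth hormone genes, and of the prolactin and growth hormone genes 4 rose and 5 fell without week 2 replicate 3. YAP and TEAD targets rose in 8 of 25 and fell in 7, but 14 rose and 4 fell without week 2 replicate 1, 7 rose and 8 fell without week 2 replicate 3 and 6 rose and 11 fell without week 2 replicates 2 and 3. Actin genes rose in 8 of 34 and fell in 4, but 5 rose and 9 fell without week 2 replicate 3, 16 rose without week 2 replicate 1, and 4 rose and 16 fell without week 2 replicates 2 and 3. Glycosyltransferases rose in 14 of 44 and fell in 9, but 10 rose and 21 fell after transcript length centring. Lysosome and autophagy genes rose in 12 of 37 and fell in 8, and splicing regulators rose in 10 of 40 and fell in 11, where the epithelial splicing factors Esrp1 (1.75) and Esrp2 (1.81) led the rises. Integrins rose in 5 of 26 and fell in 6, ADAM proteases in 4 and 5 of 30, complement and coagulation genes in 4 and 7 of 36, and squamous genes in 5 and 6 of 16. HOX genes rose in 4 and fell in 2 of 19, imprinted genes in 6 and 3 of 29, iron genes in 8 and 4 of 25, senescence genes in 4 and 6 of 25, and prolactin-family and placental genes in 3 and 3 of 7. Leaving out 1 library moved several of these counts: complement and coagulation falls to 4 without week 4 replicate 1, week 2 replicate 1 or week 2 replicate 2, ADAM falls to 8 without week 2 replicate 3, and splicing falls to 7 and glycosyltransferase rises to 9 without week 2 replicate 2. HOX rises moved to 2 without week 4 replicate 1, 2 or 3 or week 2 replicate 2 or 3, and actin rises to 5 without week 4 replicate 2 or 3 or week 2 replicate 2. Splicing regulators had 18 rises and 11 falls without week 2 replicate 1. Glycosyltransferases had 11 rises and 14 falls without week 2 replicate 3. Without week 2 replicate 1, rises outnumbered falls among integrins (8 and 4), ADAM proteases (6 and 5), complement and coagulation genes (6 and 4), squamous genes (5 and 4) and senescence genes (7 and 5). Integrins had 5 rises and 4 falls without week 4 replicate 3 or 4, and iron genes 2 falls without week 4 replicate 2. Without week 2 replicates 2 and 3, 14 integrins, 13 ADAM proteases and 12 lysosome and autophagy genes fell, and 1 imprinted gene rose.

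By absolute level, the largest gain was that of Lcn2, described above. Trf, the iron carrier transferrin, came next and had 7678, 7255, 6333 and 7762 TPM at week 4, against 2984, 2119.6 and 3464 TPM at week 2 (log2 fold change 1.37, SE 0.16, adjusted p = 8.23e-05), and Igfbp5, a binding protein of insulin-like growth factors, had 5675, 4832, 5479 and 5571 TPM at week 4, against 2968, 1222 and 1555 TPM at week 2 (log2 fold change 1.59, SE 0.24, adjusted p = 0.000376). Actg1, a cytoplasmic actin (1.00), Cyr61, a matrix protein and YAP target (1.35), Ier3 (1.09) and Thbs1, thrombospondin 1 (1.94), followed. The largest losses beside Vim and Cst3 were in B2m (-1.53), the translation factor gene Eef1a1 (-0.43), the proteoglycan Dcn (-2.56), the calcification inhibitor Mgp (-1.42) and Tmsb4x, which binds actin monomers (-1.01). Eef1a1 did not pass in the fit of the 7 libraries alone (adjusted p = 0.0599), with no filter on low values (0.283), after quantile normalization (0.584) or with the replicate block (0.0562). Dcn is a fibroblast marker, had 254, 466, 454 and 815 TPM at week 4, against 2938, 5120.1 and 1322 TPM at week 2, and fell while 10 of 12 fibroblast markers did not pass.

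Some abundant genes were held within narrow limits. Rhoa, a small GTPase of the cytoskeleton, was at 442 ± 13.7 TPM at week 4 and 449 ± 72.3 TPM at week 2 (log2 fold change -0.01, 95% interval -0.23 to 0.21). The chaperonin subunit Cct2 (95% interval -0.24 to 0.12) and the chaperone Canx (95% interval -0.22 to 0.09) were bounded as tightly. Of all tested genes, 173 had an interval within 0.25 of 0.

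Several of the genes with the widest spread within a week are known from macrophages, plasma cells or matrix-making cells. At week 4, the macrophage genes C1qa, C1qb, Cybb and Fcer1g and the cytokine gene Il1b had their lowest week 4 level in replicate 3: C1qa had 167, 206, 23.2 and 79.1 TPM at week 4, against 392, 78.2 and 354 TPM at week 2, and Il1b had 80.1, 116, 13.3 and 45.0 TPM at week 4, against 160.0, 55.9 and 250.4 TPM at week 2. At week 2, the plasma cell gene Jchain had 135, 6.55 and 10.1 TPM, and the matrix gene Fn1 had 2220.0, 448 and 186 TPM, each highest in replicate 1. Col1a1, the main collagen chain, had 378, 882, 634 and 1094 TPM at week 4, against 688, 181 and 67.9 TPM at week 2 and did not pass (adjusted p = 0.0737). None of these but Jchain separated the weeks.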

How the data were processed

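Stranded mRNA libraries of tumor cells were processed with FastQC, Trim Galore and HISAT2 on mm10, per the submitters' processing notes; the read counter and annotation are not given in the sources used here. The authors deposited 1 table of TPM per gene for 11 tumor libraries of weeks 2, 3 and 4, matched by column title. Of its 33681 gene entries, 27 named as dates were left out (at most 0.159% of a library's TPM). No 2 week 2 or week 4 libraries were identical.

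Genes with 1 TPM or more in at least 3 of the 11 libraries were tested with limma 3.58.1 in R 4.3.3 (lmFit, eBayes with a mean trend) on log2(TPM + 1), all 11 libraries in one fit, contrast week 4 minus week 2, with Benjamini-Hochberg adjusted p over 14770 genes. The procedure was tested on simulated data. Intervals are 95% limma intervals, and n is small (4 and 3). TPM are not counts, so no count test was used, and counting error is unknown.

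Members and lists were chosen with earlier results of these data known, and counts of lists are descriptions. Named genes are the 25 largest rises and falls without overlap and with at least 10 TPM in the higher week, the 15 largest changes in TPM each way, members of lists, abundant genes with an interval within 0.25 of 0, the 10 widest ranges per week, Mogat1 and Epcam. Values by library are given for up to 4 changed members of a list. Lists of lipid synthesis and interferon genes are not analysed here. A few list members are counted in their lists but are not reported here by name or drawn singly. Transcript lengths came from GENCODE M21 (13785 genes, 93.3%), and names, coordinates and promoters from RefSeq (GRCm38.p6). Alternatives covered the libraries fitted, pseudocounts of 0.1 and 5, filters, scaling, array weights, a replicate block and leaving out libraries. Figures used matplotlib 3.10.9 in Python 3.11.15.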

Additional observations from a re-analysis of the deposited data

Results flagged for a closer look

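The level of each gene named above in the 4 week 4 libraries was searched for a library that stands far from the other 3, by Dixon's test at its 95% critical value. Of 235 genes 10 had such a library, where chance gives about 1 gene in 20. Week 2 has 3 libraries and was not searched.

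In most cases the library was the highest of week 4. Zfp750 had 54.6 TPM and Kit 114 TPM in week 4 replicate 4, Hey1 had 103 TPM in week 4 replicate 1, Rhoa had 463 TPM in week 4 replicate 2 and Bmp2 had 7.76 TPM in week 4 replicate 3. Prl2c2 had 0.181 TPM in week 4 replicate 2 and Nppb 0.195 TPM in week 4 replicate 4, each listed at 0 in the other week 4 libraries. With the others at 0, any value above 0 is flagged, so these flags say nothing about the library. The library was the lowest of week 4 for the other 3 genes: Fzd3 had 4.66 TPM in week 4 replicate 3, S100a6 had 291 TPM in week 4 replicate 1, and Cma1 was listed at 0 TPM in week 4 replicate 4. For each of these genes but Rhoa, which did not pass the threshold, the 4 week 4 libraries lay on one side of all 3 week 2 libraries. For Zfp750, Prl2c2 and Nppb that was a condition of their choice.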

How the results depend on the processing

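Each result was recomputed under 19 alternatives, 17 of them planned and 2 (transcript length centring, and the fit without week 2 replicates 2 and 3) chosen after seeing the data. The fit without week 2 replicates 2 and 3 keeps only 1 week 2 library. Of 224 named genes past the threshold, 209 kept their direction and their call in every alternative that could test them, and 15 lost the call in at least 1; these are given with their adjusted p beside the gene. The number of genes past the threshold was 6843 with all libraries and 5278 (without week 2 replicate 2) to 7765 (without week 2 replicate 1) when 1 library was left out. Over the same leave-one-out fits, 3308 to 5251 genes were higher and 1970 to 2616 lower at week 4. A pseudocount of 5 left 1132 genes past the threshold and at least 2-fold, against 2260 with a pseudocount of 1, since a larger pseudocount shrinks every fold change. Array weights called 1577 genes lower, against 2525, and the cause was not tested. The estimate of these weights did not fully converge. The median log2 fold change of all tested genes, 0.11 in the report, was 0.0006 with no filter on low values, -0.0185 after median-of-ratios rescaling, -0.0136 after transcript length centring, and 0.0089 without week 2 replicates 2 and 3.

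A sign was turned in 5 genes. Canx was at 0.0202 and Cct2 at 0.0383 after quantile normalization, and Rhoa at 0.10 after quantile normalization, 0.0151 without mitochondrially encoded genes and 0.0729 with array weights; leaving out 1 library moved Rhoa between -0.1056 (without week 2 replicate 3) and 0.1136 (without week 2 replicate 1). None of these 3 passed the threshold in the reported fit. Fn1, which did not pass, was at -0.0813 after transcript length centring and -1.73 without week 2 replicates 2 and 3, and between -0.5813 (without week 2 replicate 3) and 1.20 (without week 2 replicate 1) with 1 library left out. Snai1 was at -0.0259 without week 2 replicates 2 and 3. Of the 69 lists, 41 had the count of their leading direction move by more than 1.5 times under at least 1 alternative. With replicate number as a block, 5885 genes passed, 3741 higher and 2144 lower at week 4, but same-numbered libraries did not deviate together (correlations of -0.04, -0.24 and -0.06 for replicates 1, 2 and 3), so the numbers are not taken as pairs. Read depth is not in the deposited table, so no counting interval could be given, and levels under about 1 TPM carry little weight.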
